A study of Homo sapiens with 12 samples.

Results

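The respiratory chain was followed here through 44 genes, 15 of them encoded on the mitochondrial chromosome and 29 in the nucleus. They were taken by symbol, all 44 names were found once among the 60664 genes of the count table, and all 44 were among the 17544 genes that passed the filter on low counts. The mitochondrial set comprised all 13 mitochondrial mRNAs and both mitochondrial ribosomal RNAs (rRNAs). The nuclear set held 12 subunits of complex I, the 4 subunits of complex II, 5 of complex III, 7 of complex IV and 1 of complex V.

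The cells were MDA-MB-231, an established human triple-negative breast cancer line labelled WT, grown in high-glucose medium with serum. They were plated at 500000 per flask and brought near confluence at pH 7.4. For the next 24 h the flasks held pH 7.4, pH 6.9 or pH 6.4 medium, and the labels number 4 repeats of each, with 1 library per repeat. The series as a whole asks how acidity and low oxygen bear on the spread of cancer cells. The sample labels name the middle medium pH 6.9 whereas the protocol gives 6.7 for it, so pH 6.9 is only the label's name. All groups share the line, the serum, the detachment with a trypsin-like enzyme before lysis and a poly(A)-selecting kit, and nothing labels the repeats as separate cultures, so each p-value reflects only the spread among these libraries, which may be technical.

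The respiratory complexes sit in the inner mitochondrial membrane, where electrons pass along them and complexes I, III and IV pump protons. Complex I takes electrons from NADH, complex II from succinate, complex III hands them to cytochrome c, complex IV passes them to oxygen, and complex V uses the proton gradient to make ATP. Mitochondrial DNA encodes core subunits of complexes I, III, IV and V and the rRNAs of the mitochondrial ribosome, and its messages are transcribed as long precursors and cut apart. All subunits of complex II come from the nucleus. In several mitochondrial genes the stop codon is completed only by the poly(A) tail, and a poly(A)-selecting kit is designed to capture RNAs through such a tail.

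Libraries held 21060767 to 50643233 counts. Repeat 1 at pH 7.4 had 17841 detected genes and repeat 2 at pH 6.9 had 21628, against 23113 to 27384 in the other 10. The members called at pH 6.4 are therefore also given without these 2 libraries, in the last section. All 8 markers of the labelled line were detected in every medium, with summed levels of 7588 to 7924 CPM (counts per 1000000 counts of the library, with its size scaled by TMM) at pH 7.4, 7470 to 8184 at pH 6.9 and 7973 to 9188 at pH 6.4. Of 8 leukocyte markers, 7 were under 1 CPM in each medium, and the 6 markers of fat and muscle summed to at most 1.03 CPM. The 8 luminal markers listed as low or absent in this line summed to 297 to 443 CPM over all media. Most of that was KRT19 (219 to 315 CPM) and XBP1 (52.3 to 119 CPM), while ESR1 reached at most 0.278 CPM. The 6 endothelial markers summed to 9.21 to 17.8 CPM, mostly PECAM1 and KDR. Fibroblast markers, which this mesenchymal line may itself express, summed to 69.2 to 104 CPM at pH 7.4, 52.9 to 77.1 at pH 6.9 and 35.5 to 49.1 at pH 6.4. Their part in the results below was not tested. In bulk RNA, a change in how many cells or mitochondria contribute cannot be told apart from a change in RNA per cell.

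The mitochondrial genes differ in how they end, and 5 endings are shown because they tell a whole stop codon from one that the tail must complete, beside the ends of both rRNAs. These are ends of annotated genes, and a transcript can run on past them. The sequences are the last 30 bases of each annotated gene in GRCh38, 5′ to 3′, with the bases of the stop codon, or of the part of it that the gene encodes, in capitals. The rRNA ends carry no capitals because they hold no stop codon.
MT-CO2, chrM:8240-8269, plus strand: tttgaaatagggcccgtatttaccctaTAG
MT-CO3, chrM:9961-9990, plus strand: tgtatgtctccatctattgatgagggtctT
MT-ND6, chrM:14149-14178, minus strand: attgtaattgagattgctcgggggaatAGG
MT-RNR1, chrM:1572-1601, plus strand: aagtgtactggaaagtgcacttggacgaac
MT-RNR2, chrM:3200-3229, plus strand: tatacccacacccacccaagaacagggttt

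Of the 13 annotated genes of mitochondrial mRNAs, 6 end inside a codon, like MT-CO3, and 7 end on a whole codon, like MT-CO2. The 7 include MT-ATP8 and MT-ND4L, whose ends lie inside MT-ATP6 and MT-ND4, so the classes are of gene ends and not of RNA ends. The median log2 change at pH 6.4 against pH 7.4 was 0.04 for genes ending inside a codon and 0.06 for those ending on one, with overlapping ranges of -0.20 to 0.17 and -0.15 to 0.19. The longest run of A inside any of these genes was 8 bases, in MT-ND5, so uninterrupted runs of A were short in all 15. A-rich stretches broken by other bases were not counted.

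At pH 6.4 against pH 7.4, 6 of the 44 genes changed, 4 upward and 2 downward, at a Benjamini-Hochberg adjusted p under 0.05 in edgeR's quasi-likelihood test, adjusted over all genes tested. That is 13.6% of them, against 30.3% of all genes tested in this comparison, of which 15.6% rose and 14.7% fell. The genes that rose were MT-RNR2, NDUFV2, NDUFA10 and SDHA, and those that fell were NDUFA4 and UQCRB. At an unadjusted p under 0.05 the count was 8 members, against 41.1% of all genes. The median log2 change was -0.02 over the 44 and -0.00083 over all genes.

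**Figure D1:**
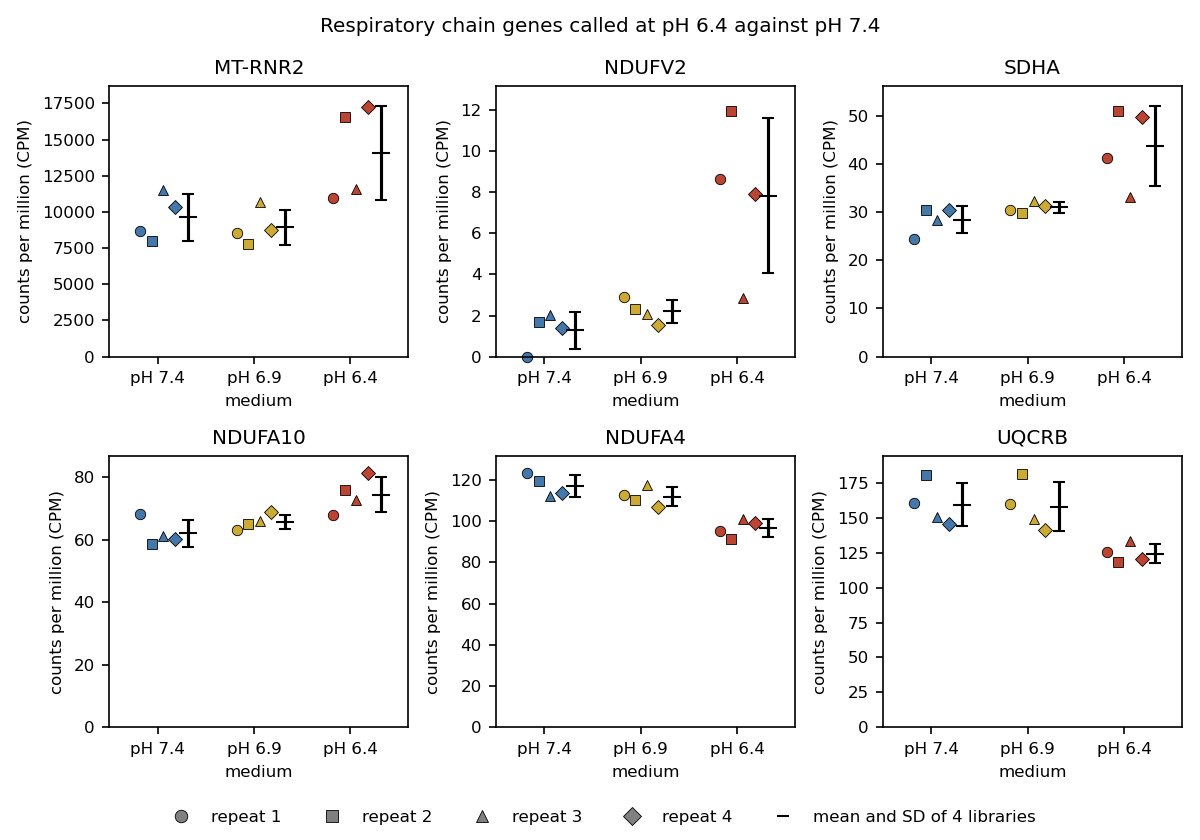
Level in CPM of each of the 6 called genes in every library, by medium from pH 7.4 to pH 6.4, with bars for the mean and SD of 4 libraries. The pH 6.4 libraries lie apart from those at pH 7.4 in NDUFV2, SDHA, NDUFA4 and UQCRB, and overlap them in MT-RNR2 and NDUFA10.

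MT-RNR2, the large rRNA of the mitochondrial ribosome (chromosome M, 1671 to 3229, plus strand), was the mitochondrial RNA that changed. In repeats 1 to 4 it had 8658, 7969, 11518 and 10372 CPM at pH 7.4, 8517, 7812, 10664 and 8735 at pH 6.9, and 10968, 16534, 11584 and 17221 at pH 6.4. Repeats 2 and 4 at pH 6.4 stood above every other library, and repeat 1 at pH 6.4 fell within the range at pH 7.4, so the groups overlap. Its mean was 14077 ± 3256 CPM at pH 6.4 and 9629 ± 1614 CPM at pH 7.4 (SD, n = 4 each), a log2 change of 0.55 with SE 0.162, a 95% interval of 0.20 to 0.89 and an adjusted p of 0.0196 in edgeR's test. This call depended on single libraries: without repeat 1 at pH 7.4 the log2 change was 0.50 with an adjusted p of 0.0553, and without repeat 2 or 4 at pH 6.4 or repeat 2 at pH 7.4 the adjusted p ranged from 0.0621 to 0.0733.

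MT-RNR1, the small rRNA, is cut from the same precursor and lies just upstream (chromosome M, 648 to 1601, plus strand). It had 778, 805, 1007 and 862 CPM at pH 7.4, 750, 877, 935 and 790 at pH 6.9, and 753, 966, 887 and 1101 at pH 6.4. These ranges overlap throughout, and its log2 change at pH 6.4 against pH 7.4 was 0.10. The interval of -0.15 to 0.36 includes 0 and overlaps that of MT-RNR2, 0.20 to 0.89. The ratio of MT-RNR2 to MT-RNR1 was 11.1, 9.90, 11.4 and 12.04 at pH 7.4, 11.4, 8.90, 11.4 and 11.1 at pH 6.9, and 14.6, 17.1, 13.1 and 15.6 at pH 6.4. The 4 ratios at pH 6.4 lay above all 8 others, and the other media overlapped each other.

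MT-RNR2 alone took 1.35% ± 0.259 of all counts at pH 6.4 and 0.981% ± 0.166 at pH 7.4 (SD, n = 4 each). The difference of 0.365 percentage points had p = 0.0571 in a two-sided exact permutation test and 0.171 after adjustment over 6 tests of rRNA shares, where 4 against 4 libraries allow at smallest 0.0286. At pH 6.9 the share was 0.910% ± 0.130. rRNAs are not the intended targets of poly(A) selection, so these values count captured molecules, not the whole rRNA pool. Whether MT-RNR2 was captured by a short tail or by A-rich stretches inside it was not tested. Nuclear copies of mitochondrial genes number 415 in the annotation, 9 of them had enough counts to be tested, and 0 of those 9 were called, against 30.3% of all genes. MTRNR2L12, which resembles MT-RNR2, had 0.420 CPM at pH 6.4 and 0.151 CPM at pH 7.4. Some copies of other members were higher, with 398 and 418 CPM in those media for MTATP6P1, 241 and 220 for MTCO1P12, and 78.1 and 81.1 for MTND2P28. Whether reads moved between such copies and the mitochondrial genes was not tested.

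The 13 mitochondrial mRNAs showed no call at pH 6.4 against pH 7.4, in edgeR, DESeq2 or limma-voom, and 0 of 13 at an unadjusted p under 0.05 in edgeR. Their log2 changes ran from -0.20 in MT-CO3 to 0.19 in MT-CO2, with 9 above 0, 4 below and a median of 0.06; the median was -0.02 with scaling by library size alone, so its sign rests on the scaling. MT-CO2, a catalytic subunit of complex IV (chromosome M, 7586 to 8269), had 5715, 5319, 6564 and 6272 CPM at pH 7.4, 6904, 5530, 6804 and 6353 at pH 6.9, and 5868, 7116, 7024 and 7164 at pH 6.4. Repeats 2 to 4 at pH 6.4 exceeded all pH 7.4 libraries and repeat 1 did not, and the log2 change of 0.19 had an interval of -0.03 to 0.40.

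MT-CO3, the third mitochondrial subunit of that complex (chromosome M, 9207 to 9990), leaned the other way. It had 4622, 4624, 5248 and 5268 CPM at pH 7.4, 5185, 4527, 5479 and 5370 at pH 6.9, and 3907, 4138, 4907 and 4253 at pH 6.4. For each repeat number the pH 6.4 library was the lowest of the 3, while the groups overlap, with repeats 3 and 4 above repeats 1 and 2 in all media. Its log2 change at pH 6.4 against pH 7.4 was -0.20 with an adjusted p of 0.128 in edgeR's test, and -0.20 with 0.00914 once the repeat number entered the model as a block. MT-ND3, a small complex I subunit, had -0.15 and 0.524 without the block against -0.16 and 0.0284 with it.

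The other mitochondrial messages had estimates nearer to 0 or wide intervals. MT-ND1 of complex I had 1453, 1241, 2026 and 1879 CPM at pH 7.4, 1629, 1260, 1954 and 1909 at pH 6.9, and 1359, 1542, 1887 and 1862 at pH 6.4, with a log2 change of 0.01 and an interval of -0.35 to 0.37 at pH 6.4 against pH 7.4. Its media overlap fully, and repeats 3 and 4 lay above repeats 1 and 2 in each. MT-CYB, the single mitochondrial subunit of complex III, had 1980, 1605, 2128 and 2140 CPM at pH 7.4, 2612, 1868, 2569 and 2476 at pH 6.9, and 2021, 1768, 2543 and 1969 at pH 6.4. Its media overlap, and the log2 change at pH 6.4 against pH 7.4 was 0.08 (interval -0.21 to 0.37). MT-ATP6, the proton channel subunit of complex V, had 2700, 2548, 3159 and 3062 CPM at pH 7.4, 3982, 2591, 3078 and 3231 at pH 6.9, and 2626, 3310, 2932 and 2673 at pH 6.4. Repeat 1 at pH 6.9 was the highest of the 12, and the log2 change at pH 6.4 against pH 7.4 was 0.01 (interval -0.26 to 0.28).

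MT-ND6 is the one mitochondrial member encoded on the minus strand (chromosome M, 14149 to 14673). It had 140.1, 148.4, 108.2 and 88.7 CPM at pH 7.4, 205.4, 176.4, 100.1 and 129.2 at pH 6.9, and 131.2, 187.0, 103.5 and 107.2 at pH 6.4. The media overlap, and its log2 change at pH 6.4 against pH 7.4 was 0.12 with an interval of -0.37 to 0.62. MT-ATP8 shares 46 bases with MT-ATP6, which is 22.2% of its length, and MT-ND4L shares 7 with MT-ND4, so reads over those stretches could be counted for either gene or neither.

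**Figure D2:**
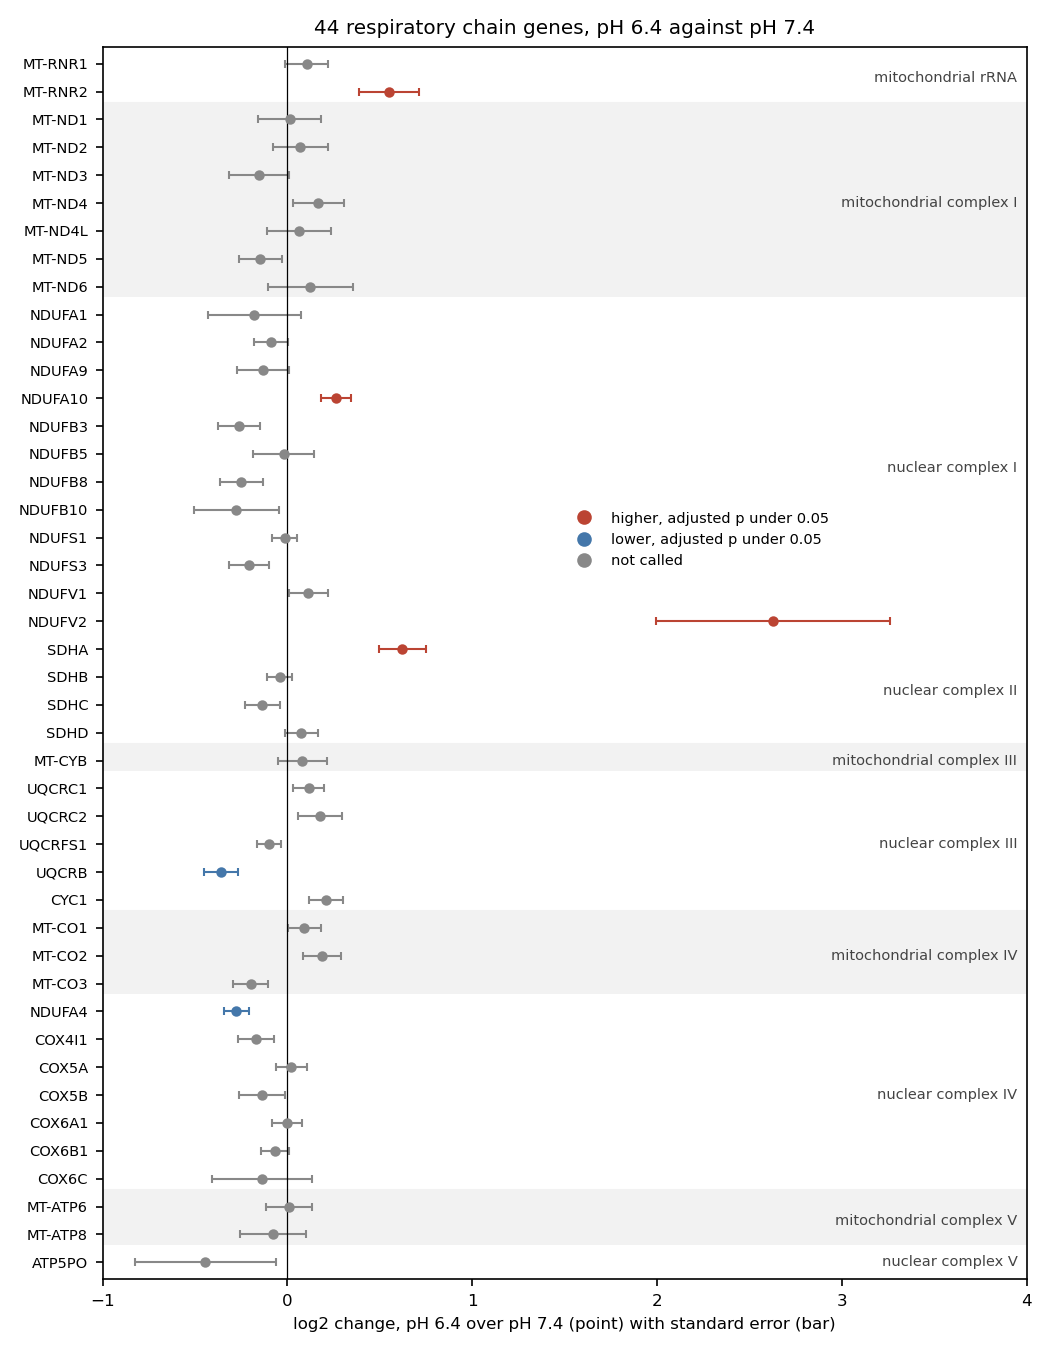
Log2 change for each of the 44 genes at pH 6.4 against pH 7.4, grouped into mitochondrial RNAs and nuclear subunits of each complex. Bars give the standard error (SE), which is narrower than the 95% interval, and called genes are marked. The mitochondrial mRNAs lie between -0.20 and 0.19, and NDUFV2 at 2.63 lies far from all others.

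Among the 29 nuclear subunits, 3 rose and 2 fell at pH 6.4 against pH 7.4, which is 17.2% called against 30.3% of all genes tested. In 6 the libraries did not overlap between the media, against 27.9% of all genes tested. Estimates were above 0 for 9 and below 0 for 20, with a median log2 change of -0.09. In complex I, 2 of 12 nuclear subunits were called (16.7%, against 30.3% of all genes) and both rose.

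NDUFV2 encodes an iron-sulphur subunit of the NADH-oxidising arm of complex I, next to NDUFV1, which binds the flavin (NDUFV2 lies on chromosome 18, 9102630 to 9134345, plus strand). It had 0, 1.70, 2.05 and 1.38 CPM at pH 7.4, 2.89, 2.30, 2.06 and 1.55 at pH 6.9, and 8.66, 11.95, 2.85 and 7.91 at pH 6.4. All 4 libraries at pH 6.4 exceeded all 4 at pH 7.4, but repeat 3 at pH 6.4 sat just under repeat 1 at pH 6.9. Behind these values are 0, 82, 44 and 62 counts at pH 7.4 and 355, 554, 121 and 231 at pH 6.4; the count of 0 allows up to 0.0870 CPM, the level of 3 counts in that library, for counting error only.

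NDUFV2 averaged 7.84 ± 3.76 CPM at pH 6.4 and 1.28 ± 0.897 CPM at pH 7.4 (SD, n = 4 each), a log2 change of 2.63 with SE 0.634, an interval of 1.27 to 3.98 and an adjusted p of 0.00644 in edgeR's test. Without repeat 1 at pH 7.4, the library at 0, the log2 change was 2.22 with an adjusted p of 0.00163. Split by repeat, it was 3.53 in repeats 1 and 2 alone and 1.68 in repeats 3 and 4 alone.

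The level of NDUFV2 was low for a core subunit: per kb of exon it had 0.473 CPM at pH 7.4, 0.811 at pH 6.9 and 2.89 at pH 6.4, while its partner NDUFV1 had 18.7, 19.8 and 20.2 on the same scale. NDUFV1 had a log2 change of 0.11 at pH 6.4 against pH 7.4, with an interval of -0.12 to 0.34. Another annotated transcript, AP005263.1, overlaps 28.4% of the exons of NDUFV2 on the same strand and had 0 counts in all 12 libraries. The sources used here do not give how reads over 2 genes were counted, so the level of NDUFV2 is uncertain. Its antisense gene NDUFV2-AS1 shares no exon bases with it and had 0.413 CPM at pH 6.4 and 0.454 CPM at pH 7.4, and its pseudogene NDUFV2P1 had 0.929 and 0.809 CPM in those media.

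Across the 12 libraries, the genes whose log2 level ran most like that of NDUFV2 were HSD17B13 with a Pearson r of 0.984, SCARF1 with 0.982, a gene with no symbol in the files with 0.981, CD109 with 0.979 and POLR2J4 with 0.976. All 5 were higher at pH 6.4 than at pH 7.4, which choosing them by likeness to NDUFV2 makes likely beforehand. Their levels were low, with means at pH 7.4 from 0.226 CPM in CD109 to 1.72 CPM in SCARF1. These 12 points share their libraries and their depth, and the likeness is a description.

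NDUFA10, an accessory subunit of complex I (chromosome 2, 239892450 to 240025402, minus strand), rose by less. It had 68.3, 58.6, 61.2 and 60.3 CPM at pH 7.4, 63.1, 65.0, 65.9 and 68.8 at pH 6.9, and 68.0, 75.9, 72.8 and 81.3 at pH 6.4. Repeat 1 was slightly higher at pH 7.4 than at pH 6.4, and the other 3 repeats ran the opposite way. The log2 change was 0.26 with SE 0.0793 and an adjusted p of 0.0216 in edgeR's test. The call was lost under 10 of 24 alternatives, with adjusted p up to 0.286.

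NDUFB3 and NDUFB8, accessory subunits of complex I, did not pass the test. NDUFB3 had 42.2, 42.4, 37.5 and 37.5 CPM at pH 7.4, and 36.4, 29.8, 37.2 and 29.5 at pH 6.4, with a log2 change of -0.26 and an adjusted p of 0.0964, and -0.27 with 0.0319 under the repeat block. NDUFB8 had a log2 change of -0.25 with an adjusted p of 0.127, and 0.0670 under the block. In both, all libraries at pH 6.4 were below all at pH 7.4. NDUFB3 shares exon bases with FAM126B on the opposite strand, which rose by 0.64 on the log2 scale, and NDUFB8 shares 33.8% of its exons with AL133352.1, which had 0 counts throughout. NDUFS1, the largest subunit of complex I, had a log2 change of -0.02 with an interval of -0.16 to 0.13.

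Complex II oxidises succinate, and its flavin-binding subunit SDHA was the one of 4 that changed (chromosome 5, 218241 to 256700, plus strand). That is 25% called, against 30.3% of all genes. SDHA had 24.4, 30.5, 28.4 and 30.5 CPM at pH 7.4, 30.5, 29.8, 32.3 and 31.2 at pH 6.9, and 41.2, 51.1, 33.2 and 49.8 at pH 6.4. Every library at pH 6.4 lay above every other library, with repeat 3 nearest to them. SDHA averaged 43.8 ± 8.32 CPM at pH 6.4 and 28.5 ± 2.86 CPM at pH 7.4 (SD, n = 4 each), 1.54-fold higher, with a log2 change of 0.62, SE 0.126, an interval of 0.35 to 0.89 and an adjusted p of 0.00221 in edgeR's test.

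Without repeat 1 at pH 7.4 the log2 change of SDHA was 0.56 with an adjusted p of 0.00778. SDHA has pseudogene copies that could exchange reads with it: SDHAP1 had 9.79 CPM at pH 6.4 and 7.73 CPM at pH 7.4 with an adjusted p of 0.163, and SDHAP3 had 4.47 and 5.71 CPM in those media with 0.196. Neither was called, with log2 changes of 0.34 for SDHAP1 and -0.35 for SDHAP3. Whether reads moved between these copies and SDHA was not tested.

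The other subunits of complex II did not pass the test. SDHB, which carries the iron-sulphur clusters (chromosome 1, 17018722 to 17054170, minus strand), had 94.1, 91.1, 101.7 and 94.6 CPM at pH 7.4, 88.3, 92.3, 89.8 and 89.4 at pH 6.9, and 96.7, 87.8, 91.8 and 94.0 at pH 6.4. Its log2 change of -0.04 had an interval of -0.18 to 0.10, which ends below the start of that for SDHA. The membrane anchors SDHC and SDHD had -0.14 (interval -0.34 to 0.07) and 0.08 (interval -0.11 to 0.26).

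The promoters of complex II subunits are shown because one of the 4 genes moved apart from the others. They were searched on both strands for GCGCA and GCGC with 1 base of any kind between them, the core of the motif bound by NRF1, a transcription factor known for its sites in nuclear genes of respiration. Its 2 strands can match at the same place, which was counted as 1 copy. The 250 bases before each RefSeq start in GRCh38.p14 follow, 5′ to 3′ on the gene's strand, with the motif in capitals; SDHC had no sequence to show.
SDHA, chr5:218070-218319, plus strand: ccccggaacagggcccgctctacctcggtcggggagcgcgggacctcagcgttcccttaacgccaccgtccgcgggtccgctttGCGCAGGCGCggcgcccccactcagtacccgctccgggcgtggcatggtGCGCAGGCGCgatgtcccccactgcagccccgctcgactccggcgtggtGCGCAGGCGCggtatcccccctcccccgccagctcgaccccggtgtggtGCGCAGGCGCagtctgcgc
SDHB, chr1:17054033-17054282, minus strand: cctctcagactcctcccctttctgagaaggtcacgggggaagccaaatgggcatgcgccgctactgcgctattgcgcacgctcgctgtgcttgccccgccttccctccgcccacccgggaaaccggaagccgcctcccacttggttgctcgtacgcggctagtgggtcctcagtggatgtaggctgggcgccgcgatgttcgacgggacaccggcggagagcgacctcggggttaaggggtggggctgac
SDHD, chr11:112086623-112086872, plus strand: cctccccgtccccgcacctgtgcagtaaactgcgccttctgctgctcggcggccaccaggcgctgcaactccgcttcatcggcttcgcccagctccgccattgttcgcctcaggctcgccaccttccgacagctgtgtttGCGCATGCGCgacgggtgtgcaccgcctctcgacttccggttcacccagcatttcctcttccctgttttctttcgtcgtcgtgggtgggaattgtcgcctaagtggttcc

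SDHA held 4 copies of the motif, at -166, -117, -68 and -19 from its start, each 49 bases from the next. SDHD held 1, at -110, and the SDHB window did not hold these letters. In windows of 250 bases before to 50 after the start, 1716 of 27305 promoters held the motif (6.28%), and 14 held 4 or more copies. Of 23 nuclear members with a sequence, 6 held it, namely NDUFA9, SDHA, SDHD, UQCRC1, UQCRFS1 and ATP5PO. Of these 6, SDHA alone was called at pH 6.4 against pH 7.4, where 30.3% of all genes were called. Under the repeat block ATP5PO was also called, lower, where 41.6% of all genes were called. The mRNA of NRF1 had 22.9 CPM at pH 6.4 and 23.8 CPM at pH 7.4, a log2 change of -0.05. Whether the motif or NRF1 bears on any of these changes was not tested.

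In complex III, 1 of 5 nuclear subunits changed (20%, against 30.3% of all genes called). UQCRB, a ubiquinone-binding subunit (chromosome 8, 96225920 to 96235634, minus strand), had 161.2, 180.9, 150.9 and 146.0 CPM at pH 7.4, 159.9, 181.7, 149.6 and 141.8 at pH 6.9, and 125.8, 118.2, 133.7 and 120.3 at pH 6.4. All libraries at pH 6.4 lay below all 8 others, and repeat 2, the highest in both other media, was the lowest at pH 6.4. The log2 change at pH 6.4 against pH 7.4 was -0.36 with SE 0.0919, an interval of -0.56 to -0.16 and an adjusted p of 0.00899 in edgeR's test.

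The other complex III subunits did not pass the test. CYC1, the cytochrome c1 subunit, had a log2 change of 0.21 with an adjusted p of 0.101, and 0.21 with 0.00466 under the repeat block. UQCRC1 and UQCRC2, the core proteins, had 0.11 and 0.18, and UQCRC2 was called higher under the block, with an adjusted p of 0.0311. UQCRFS1, the iron-sulphur protein of the complex, had -0.10 with an interval of -0.24 to 0.04.

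In complex IV, 1 of 7 nuclear subunits changed (14.3%, against 30.3% of all genes called). NDUFA4, once assigned to complex I and now placed in complex IV (chromosome 7, 10931951 to 10940256, minus strand), had 123.5, 119.3, 112.1 and 113.7 CPM at pH 7.4, 112.6, 110.1, 117.7 and 106.7 at pH 6.9, and 95.2, 91.4, 100.9 and 99.2 at pH 6.4. The pH 6.4 libraries lay below all others and differed little among themselves. NDUFA4 averaged 96.7 ± 4.27 CPM at pH 6.4 and 117.1 ± 5.26 CPM at pH 7.4 (SD, n = 4 each), with a log2 change of -0.28, SE 0.0682 and an adjusted p of 0.00723 in edgeR's test. COX6A1, another accessory subunit of the complex, had 55.3, 58.0, 52.7 and 49.8 CPM at pH 7.4, 57.6, 49.5, 50.4 and 48.9 at pH 6.9, and 54.4, 56.6, 50.8 and 53.4 at pH 6.4. Its media overlap, with a log2 change of -0.0042 (interval -0.18 to 0.17) at pH 6.4 against pH 7.4. The other 5 ran from -0.17 in COX4I1 to 0.02 in COX5A.

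ATP5PO, the stalk subunit that stands for nuclear complex V here (chromosome 21, 33903453 to 33915980, minus strand), shows how far the repeats differed. It had 36.0, 38.6, 16.8 and 14.9 CPM at pH 7.4, 38.6, 37.7, 15.8 and 16.0 at pH 6.9, and 24.3, 27.9, 14.3 and 11.6 at pH 6.4. Repeats 1 and 2 were about 2.27 times as high as repeats 3 and 4, and within each repeat pH 6.4 was the lowest medium. The log2 change at pH 6.4 against pH 7.4 was -0.44 with an adjusted p of 0.416 without the repeat block, and -0.41 with 0.00313 with it.

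**Figure D3:**
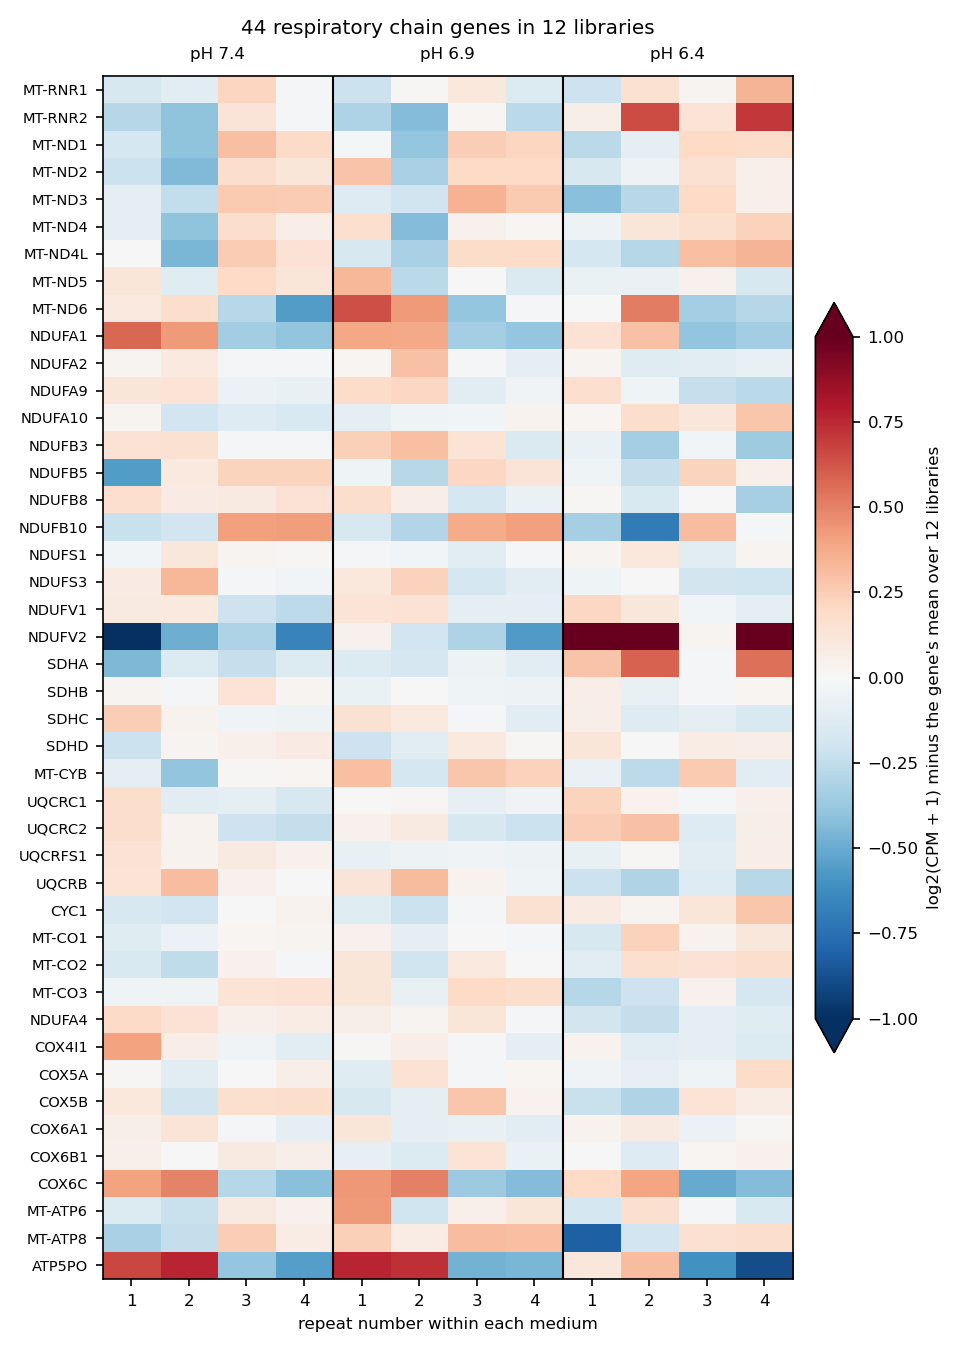
Level of each of the 44 genes in each library as log2 of CPM plus 1 minus the gene's mean over the 12 libraries, with libraries ordered from pH 7.4 to pH 6.4 and by repeat within a medium. ATP5PO, COX6C and NDUFA1 are higher in repeats 1 and 2 than in 3 and 4 of every medium, and NDUFV2 and SDHA are high in repeats 1, 2 and 4 at pH 6.4. Colours stop at 1 above or below the mean.

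The split between repeats ran through much of the chain. In 18 of 44 members both libraries of repeats 1 and 2 lay on one side of both libraries of repeats 3 and 4 in every medium, against 3149 of 17544 genes (17.9%). COX6C, a complex IV subunit, was 1.77 times as high in repeats 1 and 2, and NDUFA1 of complex I 1.69 times, while NDUFB10 of complex I was 0.639 times as high. Among mitochondrial mRNAs 6 of 13 were split, of which MT-ND6 was higher in repeats 1 and 2 (1.55 times) and the other 5 lower (0.724 to 0.885 times). The labels do not say what set these repeats apart.

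Same-numbered libraries of pH 6.4 and the other media had correlated deviations from their group means, weakest for repeat 1 of pH 6.4 and pH 7.4 (0.113). There a different number, 2, correlated more, at 0.214, so the pairing by repeat number is uncertain. Under a fit blocked by repeat number, 14 members were called at pH 6.4 against pH 7.4, of which 6 rose and 8 fell. Of all genes, 41.6% were called, 21.4% higher and 20.2% lower. These 14 members included all 6 called without the block. The added ones were MT-ND3, MT-CO3, NDUFB3, NDUFB10, NDUFS3 and ATP5PO, which fell, and UQCRC2 and CYC1, which rose. In repeats 1 and 2 alone 6 members were called, against 22.0% of all genes, and in repeats 3 and 4 alone 0, against 8.90%, where 3 passed at an unadjusted p under 0.05. All 6 called genes kept their direction in both pairs of repeats, with log2 changes of 0.73 and 0.41 for MT-RNR2, 0.75 and 0.50 for SDHA, 0.19 and 0.35 for NDUFA10, -0.37 and -0.16 for NDUFA4, and -0.48 and -0.21 for UQCRB. Without repeat 3 at pH 6.4, which lay nearest to the other media in SDHA and NDUFV2, 8 members were called, MT-CO3 and NDUFB3 in addition. The share of all genes called rose as well, to 35.8%.

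Set against each other, mitochondrial and nuclear messages had ratios that overlapped in all media. The summed mitochondrial mRNAs were 19.1 ± 2.91 times the summed nuclear subunits at pH 7.4, 20.2 ± 2.64 times at pH 6.9 and 20.3 ± 2.08 times at pH 6.4 (SD, n = 4 each). The difference in log2 ratio between pH 6.4 and pH 7.4 was 0.10 against a pooled SD of 0.19, and it was -0.04 when the mean of the genes' log2 levels replaced the sum. Mitochondrial mRNAs took 4.13% ± 0.369 of counts at pH 6.4 and 4.21% ± 0.453 at pH 7.4, and nuclear members took 0.204% ± 0.00918 at pH 6.4 and 0.222% ± 0.0114 at pH 7.4 (SD, n = 4 each). The summed rRNAs, by contrast, were 0.349 ± 0.0678 times the summed mitochondrial mRNAs at pH 6.4 and 0.253 ± 0.0156 times at pH 7.4 (SD, n = 4 each).

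**Figure D4:**
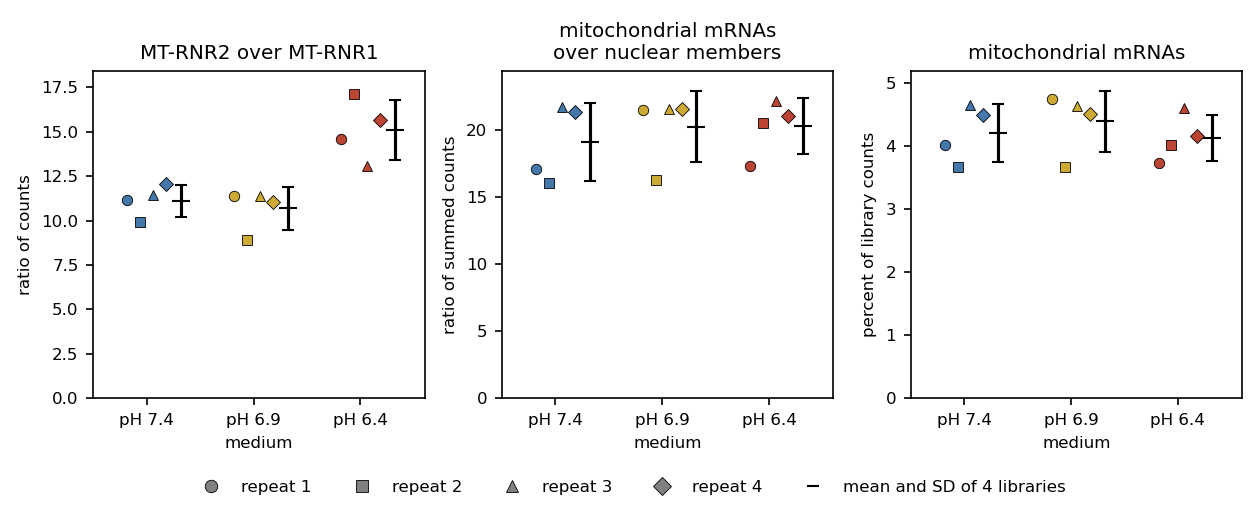
For each library, the ratio of MT-RNR2 to MT-RNR1, the ratio of mitochondrial mRNAs to nuclear subunits and the percent of library counts in mitochondrial mRNAs. Libraries are ordered by medium from pH 7.4 to pH 6.4, and bars give the mean and SD of 4 libraries. The ratio of MT-RNR2 to MT-RNR1 lies at 13.1 to 17.1 at pH 6.4 and at 12.04 or below in the other media, while the ratio of mitochondrial mRNAs to nuclear subunits overlaps in all 3.

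Per kb of exon, mitochondrial mRNAs had far higher levels than nuclear subunits in these poly(A)-selected libraries. At pH 7.4 the median over mitochondrial mRNAs was 2525 CPM per kb, with MT-CO2 highest at 8724 and MT-ND6 lowest at 231. These are levels of captured RNA, so the low place of MT-ND6 may come from its capture or its abundance, which was not tested. Over nuclear subunits the median was 29.9 CPM per kb, with COX6B1 highest at 126 and NDUFV2 lowest at 0.473. At pH 6.4 these medians were 2488 and 27.1, MT-CO2 was again highest at 9931 and COX6B1 at 120, and the lowest nuclear subunit was NDUFA9 at 0.895. Complex IV led in both genomes at pH 7.4, with medians of 6302 CPM per kb for its 3 mitochondrial subunits and 40.1 for its 7 nuclear ones. The annotated exon length covers all isoforms of a gene, which lowers the value per kb of genes with long unused exons, as in NDUFA9 with 10391 bases.

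**Figure D5:**
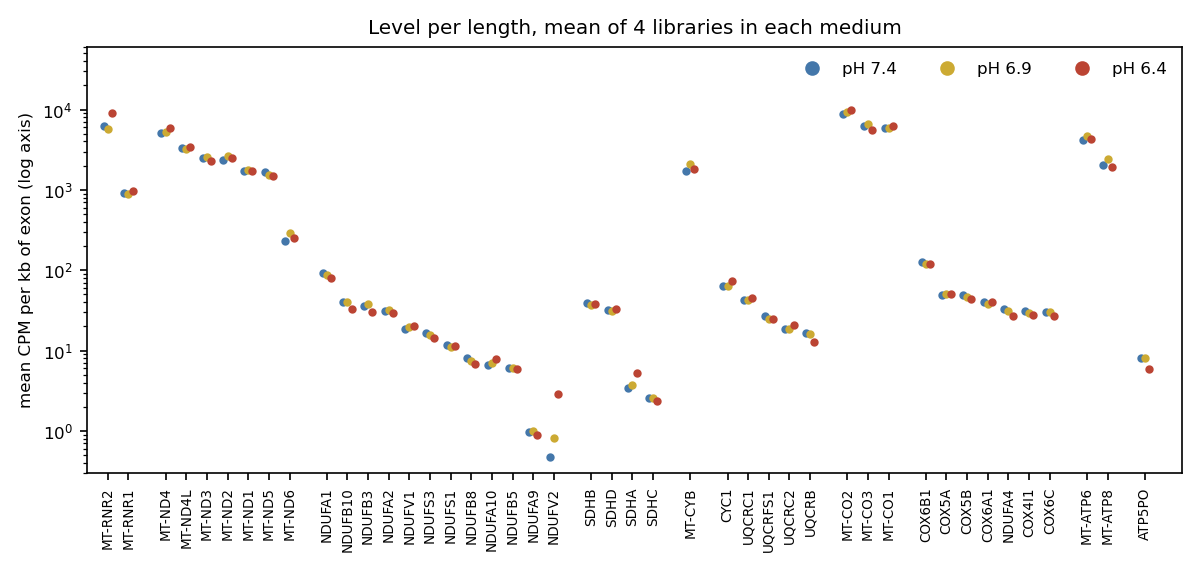
Mean level of each gene in CPM per kb of exon on a log axis, by complex and genome of origin, for pH 7.4, pH 6.9 and pH 6.4. Mitochondrial mRNAs lie between 231 and 9931 and nuclear subunits between 0.473 and 126, and the points of the 3 media nearly coincide for most genes other than NDUFV2.

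At pH 6.9 against pH 7.4 no member was called, against 0.724% of all genes tested, and 0 passed at an unadjusted p under 0.05 in edgeR or limma-voom, against 11.9% of all genes in edgeR, while DESeq2 called 0 with 2 at an unadjusted p under 0.05. MT-RNR2 had a log2 change of -0.11 (interval -0.45 to 0.24), SDHA 0.12 (interval -0.15 to 0.39) and NDUFA10 0.08 (interval -0.09 to 0.25). NDUFV2 had 0.80 with an interval of -0.54 to 2.14, which includes 0. It overlaps the interval of 1.27 to 3.98 for NDUFV2 at pH 6.4 against pH 7.4. Of the 13 mitochondrial mRNAs 11 had estimates above 0, with a median of 0.06, and MT-CYB had 0.28 with an interval of -0.01 to 0.56. UQCRFS1 was the one member whose libraries did not overlap, lower at pH 6.9 with a log2 change of -0.13, against 10.1% of all genes.

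At pH 6.4 against pH 6.9, 2 members rose and 2 fell, 9.09% of the 44 against 17.0% of all genes tested, 8.83% higher and 8.20% lower. At an unadjusted p under 0.05 there were 8, against 31.4%, and 4 had libraries that did not overlap, against 20.4%. This comparison shares its pH 6.4 libraries with the first. MT-RNR2 had 14077 ± 3256 CPM at pH 6.4 and 8932 ± 1220 CPM at pH 6.9 (SD, n = 4 each), with libraries that did not overlap, a log2 change of 0.66 and an adjusted p of 0.0156 in edgeR's test. SDHA rose by 0.50 with 0.0165, NDUFA4 fell by 0.21 with 0.0483, and UQCRB fell by 0.35 with 0.0209, each on the log2 scale. NDUFV2 missed the threshold, with 1.83, an interval of 0.54 to 3.12 and an adjusted p of 0.0503, and passed it under 8 of 24 alternatives.

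With the repeat block, 14 members were called at pH 6.4 against pH 6.9, of which 5 rose and 9 fell, against 31.1% of all genes, 16.1% higher and 15.0% lower. Of the 9, 4 were mitochondrial mRNAs, MT-ND3 at -0.18, MT-CYB at -0.20, MT-CO3 at -0.26 and MT-ATP8 at -0.40 on the log2 scale, and 0 mitochondrial mRNAs rose. The calls without the block depended on single libraries, and the share of all genes called moved with them. Without repeat 2 or repeat 4 at pH 6.4, 0 members were called, against 6.54% and 6.85% of all genes. In these fits 7 and 8 members passed at an unadjusted p under 0.05. Without repeat 1 or 2 at pH 6.9, 2 members were called, against 8.79% and 11.8% of all genes. Without repeat 3 at pH 6.4, 7 were, against 27.6%.

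Nuclear subunits outside the 44 moved downward where they moved. Of 52 further subunits of complexes I, III, IV and V, with cytochrome c, 51 were tested, and at pH 6.4 against pH 7.4 0 rose and 10 fell (19.6%, against 14.7% of all genes called lower), with estimates below 0 for 40 and a median log2 change of -0.14. In complex I, NDUFB1 fell by 0.81 (adjusted p 0.0185 in edgeR's test), to 27.0 CPM at pH 6.4 against 47.2 CPM at pH 7.4, NDUFC2 fell by 0.47 and NDUFB2 by 0.38. UQCRQ of complex III fell by 0.33, and COX7B of complex IV by 0.30. In complex V, ATP5PB, the peripheral stalk subunit beside ATP5PO, fell by 0.35 with an adjusted p of 0.00141, and ATP5PF by 0.36. At pH 6.9 against pH 7.4 none of the 51 was called, against 0.724% of all genes, with a median of -0.06. At pH 6.4 against pH 6.9 3 fell, NDUFB2, ATP5PB and ATP5PF. That is 5.88%, below the 8.20% of all genes called lower in that comparison. Of 7 tissue-restricted or hypoxia-linked isoforms, 2 had enough counts to be tested and 0 were called.

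Of 47 assembly factors, which build the complexes, 7 rose and 11 fell at pH 6.4 against pH 7.4. That is 38.3% called, beside 30.3% of all genes, of which 15.6% were higher and 14.7% lower; the shares called in the lists that follow are read beside the same values. COX20, which escorts the mitochondrial COX2 protein, fell by 0.89, to 34.6 CPM at pH 6.4 against 64.4 CPM at pH 7.4, while COX19, a copper-handling factor of complex IV, rose by 0.78. SDHAF4, which matures SDHA before it joins SDHB, rose by 0.66, with 18.2 CPM at pH 6.4 and 11.5 CPM at pH 7.4, an adjusted p of 0.0035 in edgeR's test. UQCC1, an assembly factor of complex III, rose by 0.41.

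Of 18 genes that keep and transcribe mitochondrial DNA, 5 rose and 3 fell, 44.4% beside 30.3% of all genes. POLG, the catalytic subunit of the mitochondrial DNA polymerase, had 158 CPM at pH 6.4 and 92.3 CPM at pH 7.4 (log2 change 0.78, adjusted p 0.00179 in edgeR's test), and its partner POLG2 rose by 0.67. The mitochondrial RNA polymerase POLRMT rose by 0.54 and TFB1M, which modifies the small rRNA, by 0.58. The transcription elongation factor TEFM fell by 0.42 and the termination factor MTERF1 by 0.44. TFAM, which packages mitochondrial DNA, was not called, with -0.23 and an adjusted p of 0.0520.

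Of 20 tested genes that process mitochondrial RNA, 0 rose and 3 fell, 15.0% beside 30.3% of all genes. HSD17B10, a subunit of the mitochondrial RNase P that cuts tRNAs from the precursor, had 24.4 CPM at pH 6.4 and 39.8 CPM at pH 7.4 (log2 change -0.70, adjusted p 8.48e-05). PTCD2 fell by 0.72, and SLIRP, the partner of the mRNA stabiliser LRPPRC, fell by 0.32, while LRPPRC had -0.05 and the poly(A) polymerase MTPAP 0.03, neither called. Among 40 mitochondrial ribosomal proteins 2 rose and 11 fell, 32.5% and so near the 30.3% of all genes, with a median log2 change of -0.15. MRPS6 of the small subunit had 121 CPM at pH 6.4 and 273 CPM at pH 7.4, and MRPL1 of the large subunit 19.6 and 37.1 CPM in those media. MRPL20 and MRPS11 fell by 0.56 each on the log2 scale. MRPS6 was also the one gene of these lists that changed at pH 6.9 against pH 7.4, with 152 CPM at pH 6.9, a log2 change of -0.85 and an adjusted p of 0.0109.

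Of 9 tested regulators of mitochondrial biogenesis, 1 rose and 1 fell, 22.2% beside 30.3% of all genes. PPARGC1A, the coactivator known to drive the programme, had 1.89 CPM at pH 6.4 and 12.6 CPM at pH 7.4, a log2 change of -2.72 with an adjusted p of 1.15e-05 in edgeR's test, and -1.67 at pH 6.4 against pH 6.9. YY1 rose by 0.37. Of 24 citric acid cycle and pyruvate genes, 5 rose and 6 fell, 45.8% beside 30.3% of all genes. IDH2, the mitochondrial isocitrate dehydrogenase, rose by 0.72, DLST, a subunit of the oxoglutarate dehydrogenase complex, by 0.49, and SUCLA2, a succinate-CoA ligase subunit, fell by 0.52, while the alternative partner SUCLG2 rose by 0.45. Of 16 genes for ubiquinone and for other routes of electron entry, 1 rose and 2 fell, 18.8% beside 30.3%. ETFDH, which passes electrons from fat oxidation to ubiquinone, rose by 0.63, and GPD2, the mitochondrial glycerol phosphate dehydrogenase, fell by 0.52. Of 14 mitochondrial stress proteases, chaperones and regulators 4 rose and 1 fell, 35.7% beside 30.3% of all genes, with log2 changes of 0.87 for the stress-induced regulator DDIT3, 0.58 for the chaperone TRAP1 and -0.77 for ATF5.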

How the data were processed

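Raw counts of reads per gene for 12 libraries were deposited by the authors in 1 table. Per the labels' protocols, total RNA was made into libraries with a stranded poly(A) kit and sequenced on a NextSeq500. The submitters' processing notes name STAR, featureCounts and the builds GRCh38.p13 and hg38. Neither tool versions nor how strand, multi-mapping and overlapping reads were handled are stated there, so genes with copies, overlaps or antisense partners are uncertain. Unnamed genes made up 0.424% of a library's counts or less.

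The main test was run with edgeR 4.0.16 (R 4.3.3), and DESeq2 1.42.0 and limma 3.58.1 served as alternatives. It used filterByExpr, TMM and a robust quasi-likelihood fit of all 12 libraries with 1 term per medium and 9 residual degrees of freedom. P-values were adjusted by the Benjamini-Hochberg method over 17544 genes. Log2 changes come from that fit, and likeness to NDUFV2 was computed on log2 CPM with a prior count of 2. The code was tested on simulated data. Depth was 21060767 to 50643233 counts, and 66 pairs of libraries held no duplicate (chi-square per degree of freedom at least 5.11).

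Members and lists were chosen with earlier results of these data known. Values per library are given for both rRNAs, the highest and lowest mitochondrial mRNA, called members and the member with the smallest change in each complex, and lists are shown by up to 4 called genes with the smallest adjusted p. Other genes, such as MT-CO3, NDUFB3, ATP5PO, CYC1, POLRMT and MTERF1, were chosen after their values were seen. Coordinates come from GENCODE 29, which matched 58396 of 60664 IDs, and promoters from RefSeq, which had 23 of 29 nuclear members.

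Same-numbered repeats deviated together, with correlations of deviations from the group means above 0.1 in 11 of 12 pairs and from 0.0798 to 0.470. The same number gave the highest correlation in 10 of the 12. The pair below 0.1 was repeat 1 of pH 6.9 and pH 7.4, so the block is used beside the comparisons of pH 6.4 only. Alternatives covered scaling, filters, tools, the block, left-out libraries and repeats 1 and 2 or 3 and 4 alone.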

Additional observations from a re-analysis of the deposited data

Results flagged for a closer look

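Single libraries stood apart within their group of 4, with a gap to the nearest other library too wide for its group's range by Dixon's 95% critical value, in 3 of 132 groups of member values and 2 of 12 groups of ratios. Chance gives about 1 in 20 such groups. MT-CO2 had 5868 CPM in repeat 1 at pH 6.4, below the other 3 at 7024 to 7164. NDUFS1 had 129.8 CPM in repeat 3 at pH 6.9, below the others at 137.0 to 137.8. COX6A1 had 57.6 CPM in repeat 1 at pH 6.9, above the others at 48.9 to 50.4. Repeat 2 at pH 6.9, the library with 21628 detected genes, had the lowest ratio of mitochondrial mRNAs to nuclear subunits at 16.3, against 21.5 to 21.6 in the other 3, and the lowest ratio of MT-RNR2 to MT-RNR1 at 8.90, against 11.1 to 11.4.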

How the results depend on the processing

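Every call rests on 4 libraries per medium, and 24 alternatives were run for each log2 change of a called member and each count of calls. At pH 6.4 against pH 7.4 (6 members, 5321 genes), 2 members were called without a filter on low counts, 14 with the replicate block and 0 within repeats 3 and 4, where 1528 genes were called. Without the 2 libraries with the fewest genes, 5 members were called, NDUFA4, NDUFA10, NDUFV2, SDHA and UQCRB, against 30.6% of all genes. Leaving out 1 library gave 4 to 8 members and 3795 to 6411 genes. MT-RNR2 lost its call in 7 alternatives, NDUFA10 in 10, NDUFA4 and NDUFV2 in 2 each, and SDHA and UQCRB in 1 each, and all 6 lost it within repeats 3 and 4. None of the 6 changed direction in these alternatives, and the replicate block ended none of their calls. Scaling by library size alone moved the median of all genes to -0.08 and the share of higher calls to 40.4%, against 51.4%.

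At pH 6.9 against pH 7.4 (0 members, 127 genes), 201 genes were called without the filter, 559 with DESeq2, 947 with the block, 250 with only these 2 media, 7 within repeats 1 and 2, 0 within repeats 3 and 4, and 20 without the 2 libraries with the fewest genes. Leaving out 1 library gave 39 (without repeat 3 at pH 7.4) to 306 (without repeat 3 at pH 6.4), and each library but repeats 2 and 4 at pH 6.4 (134 and 118) moved this count by more than 1.5 times. The replicate block called 1 member, MT-CYB; here the repeat 1 libraries correlated at 0.0798, under the 0.1 required of every pair, and repeats 2 to 4 at 0.160 to 0.352. UQCRB had -0.01 and turned to 0.0031 within repeats 1 and 2, and ranged from -0.086 to 0.057 with 1 library left out, above 0 without repeat 2 at pH 7.4 (0.0566), repeat 3 at pH 6.9 (0.0166) or repeat 4 at pH 6.9 (0.0372).

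At pH 6.4 against pH 6.9 (4 members, 2988 genes), 2 members were called without the filter, 14 with the block and 0 within repeats 3 and 4. Of all genes, 5456 were called with the block, 1906 within repeats 1 and 2 and 0 within repeats 3 and 4. Without the 2 libraries with the fewest genes, 3 members were called, MT-RNR2, NDUFV2 and SDHA, against 16.3% of all genes. Leaving out 1 library gave 0 to 7 members and 1171 to 4944 genes, the lowest without repeat 2 at pH 6.4 and the highest without repeat 3 at pH 6.4. Leaving out repeat 1, 3 or 4 at pH 6.9 (1570, 1628 and 1880 genes) or repeat 4 at pH 6.4 (1231) also moved the count by more than 1.5 times. NDUFA4 lost its call in 16 alternatives, UQCRB in 6, MT-RNR2 in 4 and SDHA in 3. Library-size scaling moved the median of all genes to -0.09 and the share of higher calls to 38.2%, against 51.9%. The cause of these shifts was not tested.

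The share of counts in MT-RNR2 differed by 5.63 points between pH 6.4 and pH 7.4 when taken over the mitochondrial chromosome alone, with p = 0.0286 in the exact permutation test, the smallest possible. With 1 library left out the difference was 0.275 to 0.454 points of all counts, the highest without repeat 1 at pH 6.4 (p = 0.0286, exact), and a paired exact sign-flip test over the repeats gave p = 0.125, the smallest that 4 pairs allow. The ratio of mitochondrial to nuclear messages moved by less than its SD in every alternative run. At this depth the low counts of NDUFV2, 0 to 554 per library, limit its estimate.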
